A study of Mus musculus with 2 samples.

Results

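The B cell receptor signals through a small set of proteins, and 9 of their genes were followed here: the signal subunits Cd79a and Cd79b, the surface proteins Ms4a1, Cr2 and Cd22, the kinases Lyn, Syk and Btk, and the adaptor Blnk. They were taken by symbol, by a rule that used no measured value, though earlier results of these data were known. They are 9 of the 31053 genes listed for both libraries. Each library was 1 droplet library (10x Genomics, single cell 3′ kit) of mediastinal lymph node cells, the nodes that drain the lung. The mice were WT C57/B6J, 5 to 13 weeks old, with asthma induced by ovalbumin (OVA): 50 µg on days 0 and 7, a challenge on days 14 to 16 and collection on day 17. The library called OVA came from such mice without butyrate, and the library called C4 from such mice given butyrate, a short-chain fatty acid; its dose and route for these mice are not given in the sources used here. The cells of 4 mice were pooled in each library, and no library of mice without OVA was analysed here.

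The antigen-binding immunoglobulin of the B cell receptor has almost no cytoplasmic part and signals through the CD79A/CD79B pair, whose tails carry a motif with a pair of tyrosines (ITAM). Lyn phosphorylates these tyrosines, Syk docks on them and is activated, and BLNK (also called SLP-65) then brings Btk and phospholipase C together. CR2 (CD21) binds complement-coated antigen and lowers the threshold of the receptor, CD22 recruits phosphatases that restrain it, and MS4A1 is CD20. When B cells become plasma cells, the receptor on the surface gives way to secreted antibody.

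The stretches that code for the ITAMs of the signal subunits are shown because the rest of the pathway starts from them. Both are given 5′ to 3′ on the coding strand as spliced sequence of GRCm38, with the tyrosine codons in capitals. In Cd79a it lies in exons 4 to 5 of the + strand (chr7:24901296-24901469), codons 182 to 196 of a coding sequence of 220 codons. In Cd79b it lies in exons 5 to 6 of the - strand (chr11:106311867-106312012), codons 255 to 269 of an annotated transcript of 288 codons. The stretches shared 31 of 45 bases (68.9%).
Cd79a ITAM: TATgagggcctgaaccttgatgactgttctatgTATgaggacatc
Cd79b ITAM: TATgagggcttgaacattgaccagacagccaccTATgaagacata

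Promoters of Cd79a and Blnk are shown because the levels of these genes parted in the Jchain+ cells described further on. RefSeq's promoter table (GRCm38.p6, 250 bases before to 50 after the start) held 7 promoters for 6 of the 9 genes, those of Cr2, Cd79a, Cd22, Syk, Blnk and Btk. It was searched on both strands for the octamer ATTTGCAT, the EBF1 core CCCNNGGG and the ETS motif CAGGAAGT, letters that do not overlap one another and that were chosen after the promoters had been seen. Capitals mark the matches. Cd79a (chr7:24897247-24897546, + strand) held the ETS letters 56 bases before the start. Blnk (chr19:40994172-40994471, - strand) held the ETS letters 203 bases and the octamer 130 bases before the start. Cd22 held the EBF1 core 48 bases before its start, and the promoters of Cr2, Syk and Btk held none of the 3. Of all 32851 promoters in the table, 1.74% held the octamer, 13.7% the EBF1 core and 3.33% the ETS letters, so these matches describe the windows and nothing more.
Cd79a promoter: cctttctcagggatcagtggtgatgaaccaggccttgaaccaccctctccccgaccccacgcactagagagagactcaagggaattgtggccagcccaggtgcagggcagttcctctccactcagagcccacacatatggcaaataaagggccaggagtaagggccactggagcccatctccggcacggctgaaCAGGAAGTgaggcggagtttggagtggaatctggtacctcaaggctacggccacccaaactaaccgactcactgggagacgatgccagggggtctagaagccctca
Blnk promoter: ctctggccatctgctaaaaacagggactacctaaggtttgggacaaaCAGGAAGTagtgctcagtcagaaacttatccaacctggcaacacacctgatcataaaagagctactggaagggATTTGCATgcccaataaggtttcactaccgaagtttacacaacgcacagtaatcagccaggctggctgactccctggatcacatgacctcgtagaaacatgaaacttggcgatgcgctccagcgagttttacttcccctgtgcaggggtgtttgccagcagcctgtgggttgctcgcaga

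The deposited counts hold 9681 cells without and 8932 with butyrate, at medians of 5140 and 5651 unique molecular identifiers (UMIs, each standing for 1 captured RNA molecule) per cell, and the libraries share 25 cell barcodes. After filters 8774 and 8013 cells remained. Cell classes were set from other genes than the 9. Resting B cells had UMIs of at least 3 of 8 B cell genes (such as Pax5 and Ebf1) and none of Cd3e, Mki67, Top2a and Jchain. They numbered 3761 and 3653, and resting means only that no UMI of the cycling genes Mki67 and Top2a was found. Cycling B cells met the same rule for the B cell genes and Cd3e. They had UMIs of both Mki67 and Top2a and fewer than 10 of Jchain, and numbered 32 and 15. Jchain+ cells had at least 10 UMIs of Jchain, the joining chain of secreted IgM and IgA, and numbered 60 and 20. Cd3e+ cells, taken as T cells that should lack the receptor, numbered 3836 and 3510. Markers that took no part in the gates mostly went with the names. Ighd was at 962 and 1060 counts per 1000000 UMIs (CPM) in resting B cells and Birc5 at 367 and 323 CPM in cycling B cells. Xbp1, which drives antibody secretion, was at 847 and 793 CPM in Jchain+ cells. The plasma cell genes Prdm1, Sdc1 and Tnfrsf17 were also higher there than in resting B cells, with a Prdm1 UMI in 35% and 30% of Jchain+ cells. Irf4 was at 82.8 and 54.4 CPM in Jchain+ against 53.6 and 59.3 CPM in resting B cells, so with butyrate it was not higher. A Jchain+ cell need not be a plasma cell, and the class is mixed. Without butyrate 21 of 60 and with butyrate 12 of 20 had UMIs of at least 2 of 5 germinal center genes, and 29 of 60 and 13 of 20 had both Mki67 and Top2a. Jchain+ cells had medians of 25061 and 25398 UMIs per cell and cycling B cells 15803 and 12914, against 4318 and 4583 in resting B cells. Doublet removal took out 9 of 41 and 7 of 22 cycling B cells, and 8 of 68 and 2 of 22 Jchain+ cells. It took out 228 of 3989 and 224 of 3877 resting B cells. Median doublet scores (Scrublet) were 0.126 and 0.129 in cycling B, 0.118 and 0.117 in Jchain+ and 0.077 and 0.070 in resting B cells. Whether doublets remain in these classes was not tested. With 1 library per condition no test can be made. The 95% intervals in brackets cover only the error of counting UMIs and leave out how cells, mice and preparations vary. In classes of few cells, where 1 cell can hold many of a gene's UMIs, they are too narrow.

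In resting B cells every one of the 9 genes was measured well above its level in T cells, and the levels with and without butyrate lay close together. Cd79a was at 2984 CPM (2960 to 3010) without and 2946 CPM (2922 to 2970) with butyrate, a median of 13 and 14 UMIs per cell. Its partner Cd79b was at 1764 CPM (1745 to 1783) and 1870 CPM (1851 to 1889), a median of 8 and 9 UMIs per cell. Both subunits were thus captured in nearly every resting B cell: 99.8% and 99.9% of cells had a Cd79a UMI, and 99.1% and 99.3% a Cd79b UMI.

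Of the surface proteins, Ms4a1 was at 972 CPM (958 to 987) without and 1021 CPM (1006 to 1035) with butyrate, with a UMI in 95% and 96.2% of cells. Cr2, the complement receptor, was at 209 CPM (202 to 216) and 208 CPM (202 to 215). Cd22 was at 239 CPM (232 to 246) and 269 CPM (261 to 276), with intervals that do not meet, as also for Cd79b and Ms4a1. A Cr2 UMI was found in 50.5% and 52.6% of cells and a Cd22 UMI in 62.9% and 68.4%.

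Of the signal proteins inside the cell, Lyn was at 197 CPM (190 to 203) without and 196 CPM (190 to 202) with butyrate. Syk was at 218 CPM (211 to 225) and 210 CPM (204 to 217), and Btk, the kinase whose loss stops B cell development in X-linked agammaglobulinaemia, at 107 CPM (103 to 112) and 103 CPM (98.3 to 107). Only for Blnk among these 4 did the intervals stay apart, at 205 CPM (199 to 212) and 185 CPM (179 to 191). UMIs of these 4 genes were seen in 38.1% to 60.6% of resting B cells. With every cell thinned to 2000 UMIs, a resting B cell showed a median of 5 of the 9 genes in both libraries, and 97.0% and 97.2% of the cells showed 3 or more.

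**Figure D1:**
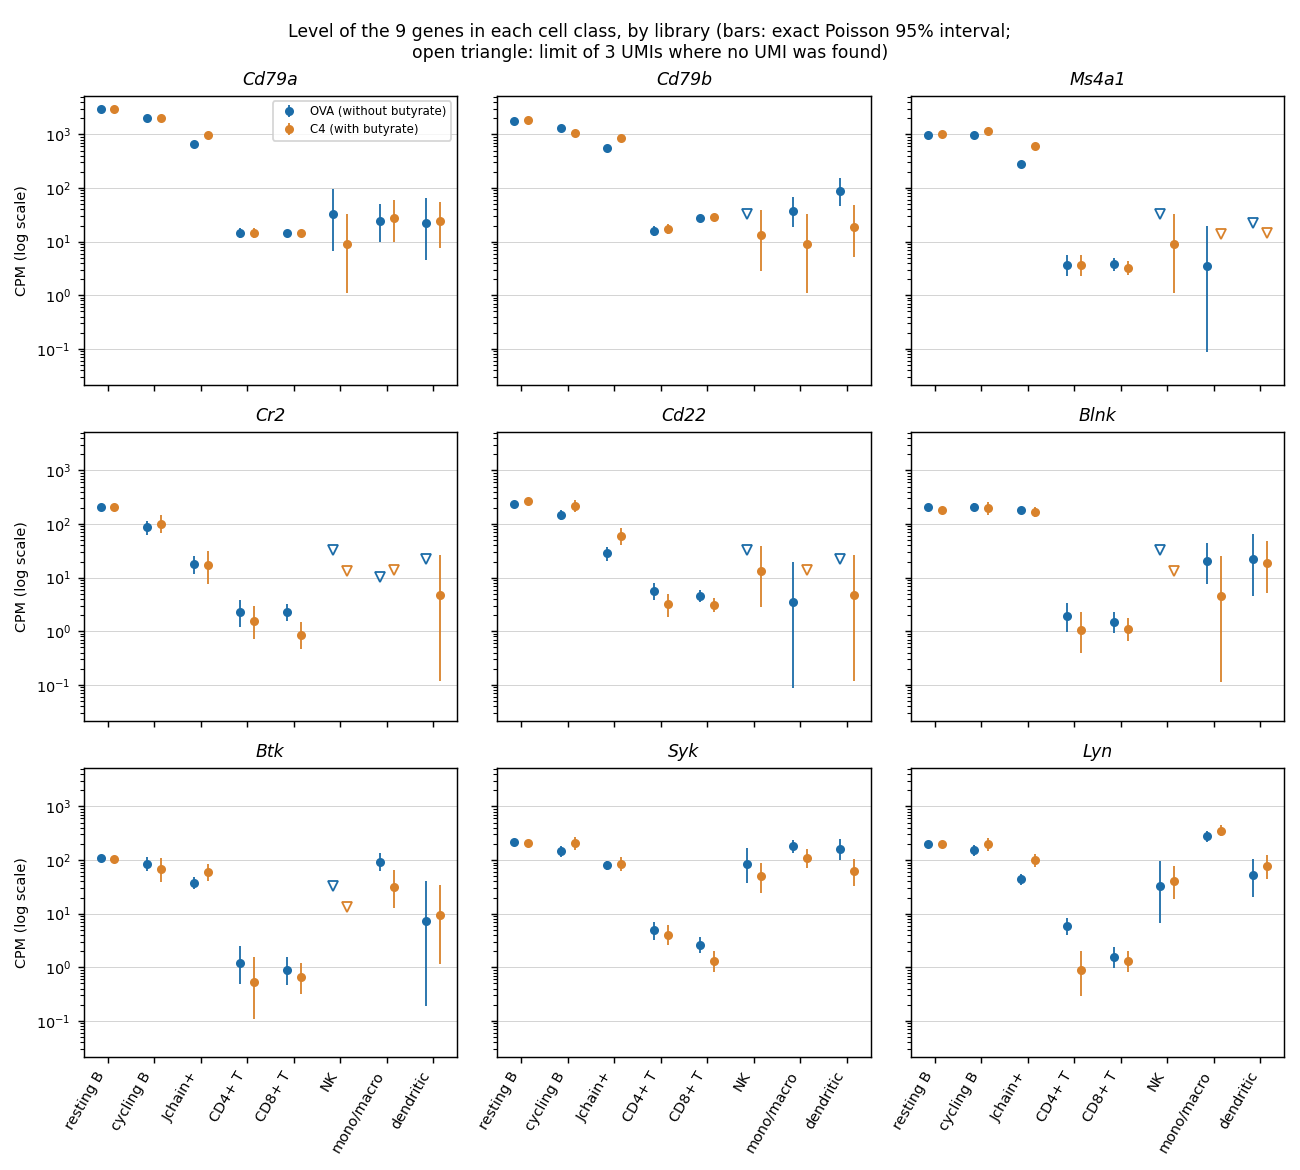
Level of the 9 genes by cell class, as CPM on a log axis, without (OVA) and with (C4) butyrate; points are sums over all cells of a class in 1 library and bars are 95% counting intervals. Resting B cells sit highest or near it for most members, Jchain+ cells lie lower for all but Blnk, and Lyn and Syk also reach 276 and 180 CPM in monocytes or macrophages without butyrate.

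The first comparison asked whether butyrate went with a different level of the receptor genes within a class of B cell. It is given as the log2 ratio of CPM, C4 over OVA, with 10 CPM added to both sides, and a ratio past 0.5 in either direction is called higher or lower. In resting B cells 0 of 9 members passed it, against 0.28% of 9995 genes. The ratios ran from -0.14 (-0.20 to -0.08) for Blnk to 0.16 (0.11 to 0.22) for Cd22, with Cd79b at 0.08, Ms4a1 at 0.07 and the other 5 between -0.06 and -0.01. Their median was -0.01 and that of all genes 0.03. At these counts the intervals are narrow, so differences of this size between the libraries exceed counting error for Cd22, Blnk, Cd79b, Ms4a1 and, barely, Cd79a, but their size relative to the spread between mice is unknown.

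Other genes of the receptor pathway were read from a list of 26 signal partners and 14 inhibitors. Of the 39 that had at least 50 UMIs in resting B cells over both libraries, 0 passed the fold. Ptpn22, a phosphatase that dampens antigen receptor signals, was lowest at -0.43 (-0.54 to -0.32), from 57.8 to 40.2 CPM. Fcgr2b, the inhibitory IgG receptor of B cells, was at 0.17, and Plcg2, the phospholipase that Blnk brings to the receptor, at 0.19. The medians were 0.07 for the partners and 0.02 for the inhibitors. The intervals of 12 of 26 partners and 6 of 13 inhibitors span 0, beside those of 4 of the 9 members. For all genes this share was not counted, so whether the members stand out by it is unknown.

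Resting B cells were also split by signs of recent activation and of interferon response. Those with UMIs of at least 2 of 6 early activation genes (Cd83, Cd69, Myc, Nr4a1, Egr2, Cd86) numbered 2506 without and 2675 with butyrate. Between them and the other resting B cells 0 of 9 members passed a log2 ratio of 1 in either library, against 0.0768% of genes without and 0.0978% with butyrate. Cr2 was the member that lay farthest from 0, at 225 against 170 CPM without butyrate (log2 0.38, 0.28 to 0.49) and at 216 against 182 CPM with butyrate (0.23, 0.13 to 0.34). Cd79b lay on the other side, at -0.16 and -0.15. Resting B cells with at least 5 UMIs of 18 interferon-response genes numbered 1752 and 1064. Between them and the others all 9 ratios lay between -0.15 and 0.10, with 0 of 9 past the fold against 0.285% and 0.293% of genes.

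**Figure D2:**
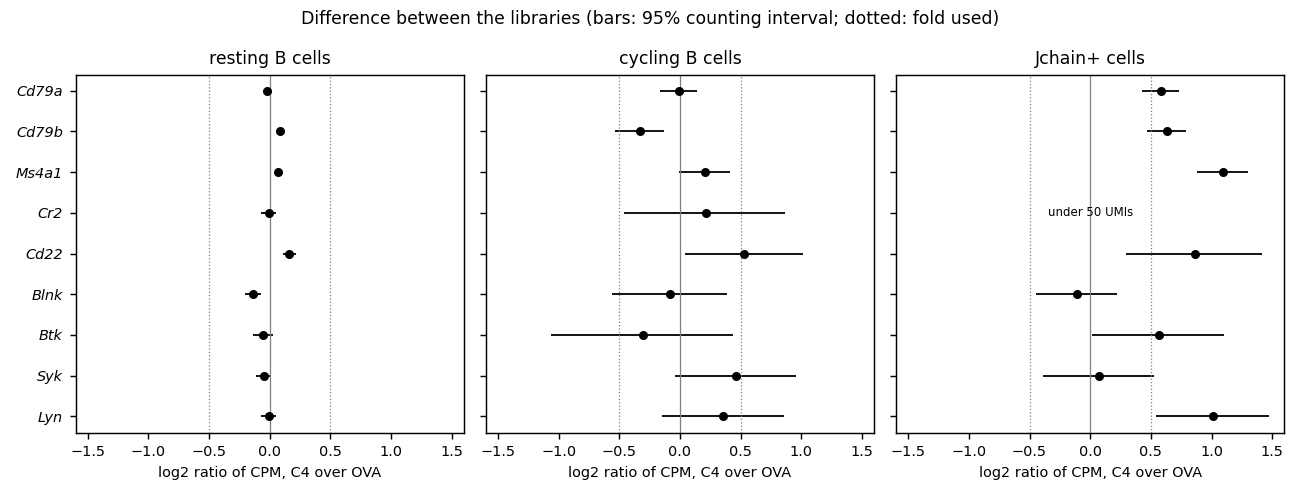
Log2 ratio of CPM, C4 over OVA, of the 9 genes in resting B, cycling B and Jchain+ cells; points are ratios of summed UMIs of the 2 libraries and bars are 95% counting intervals. The resting B points lie between -0.14 and 0.16, while the bars widen in the 32 and 15 cycling B cells, and 6 of 8 Jchain+ points lie past 0.5.

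In cycling B cells Ms4a1, Blnk and Btk were at levels whose counting intervals met those of resting B cells, while Cd79a, Cd79b and Cr2 were lower in both libraries. Ms4a1 was at 981 CPM without and 1133 CPM with butyrate, and Blnk at 208 and 197 CPM. Btk was at 84.8 CPM (46 UMIs), or -0.31 (-0.71 to 0.07), without and at 66.9 CPM (17 UMIs), or -0.55 (-1.21 to 0.06), with butyrate. Cd79a was at 2040 and 2025 CPM, which is a log2 ratio of -0.55 and -0.54 to resting B cells. Cd79b was at 1319 and 1046 CPM, or -0.42 (-0.53 to -0.31) and -0.83 (-1.01 to -0.66). Cd22 was at -0.64 and -0.27, Syk at -0.55 and -0.04 and Lyn at -0.36 and 0.01, with intervals that span 0 with butyrate and not without it. Cr2 was at 86.7 CPM (63.7 to 115), or -1.18 (-1.57 to -0.80), without butyrate and at 102 CPM (66.8 to 150), or -0.96 (-1.51 to -0.45), with butyrate. These Cr2 values rest on 47 and 26 UMIs, 23.4% and 34.6% of them in 1 cell.

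A log2 ratio of 1 was used as the fold between classes. Cr2 was the 1 of 9 members past it without butyrate (background 6.81% of genes, 1.77% lower), and 0 of 9 passed it with butyrate (background 9.96%). The members' medians were -0.42 and -0.27 beside -0.02 and -0.05 for all genes. Between the libraries, Cd22 in cycling B cells was the 1 of 9 members past 0.5, at 0.53 (0.04 to 1.01), where 16.5% of 2062 genes passed. Cd22 was at 149 CPM (81 UMIs) without and 220 CPM (56 UMIs) with butyrate, and 7 of the 9 intervals span 0. Under other settings between 0 and 5 members passed of 3 to 9 with enough UMIs, as given in the closing section. Of the pathway list, 2 of 13 partners with enough UMIs were higher and 1 of 8 inhibitors was lower, which is again near the share of all genes. The intervals of 11 of these 13 partners and 7 of these 8 inhibitors span 0.

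In Jchain+ cells most of the receptor genes were far lower than in resting B cells, and Blnk was not. Without butyrate Cd79a was at 661 CPM (621 to 702) in Jchain+ cells against 2984 CPM in resting B cells, and with butyrate at 993 CPM (911 to 1082) against 2946 CPM. Cr2 was lowest, at 17.7 CPM (11.8 to 25.6) and 16.9 CPM (7.71 to 32.0), and Cd22 was at 28.4 and 59.98 CPM. Blnk stayed at 181 CPM (160 to 203) and 167 CPM (134 to 205), close to its 205 and 185 CPM in resting B cells.

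Without butyrate 8 of 9 members were lower past the fold, where 11.7% of 9324 genes were. The log2 ratios were -2.98 for Cr2, -2.69 for Cd22, -2.16 for Cd79a, -1.93 for Lyn, -1.78 for Ms4a1, -1.64 for Cd79b, -1.35 for Syk and -1.31 for Btk, and -0.17 (-0.34 to -0.01) for Blnk. With butyrate 5 of 9 were lower past the fold, where 9.68% of 9293 genes were. They were Cr2 at -3.02, Cd22 at -1.99, Cd79a at -1.56, Syk at -1.22 and Cd79b at -1.09, while Lyn at -0.91, Ms4a1 at -0.76, Btk at -0.69 and Blnk at -0.14 did not pass. The medians were -1.78 and -1.09, and those of all genes -0.26 and -0.18. Immunoglobulin and Jchain RNA made up 25.8% and 17.3% of the UMIs of Jchain+ cells and 1.53% and 1.55% of those of resting B cells, which lowers the CPM of every other gene in Jchain+ cells. With the UMIs of immunoglobulin, ribosomal and mitochondrial genes left out of the totals, Blnk was at 0.03 and -0.04, Cd79a at -1.96 and -1.45 and Cr2 at -3.03 and -3.15.

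The Jchain+ cells were then taken by their amount of Jchain. B cells with 1 to 9 Jchain UMIs (107 and 52 cells) had all 9 members within -0.47 to 0.09 of resting B cells. In cells with 10 to 99 Jchain UMIs (23 and 13 cells) Ms4a1 was at -0.56 and -0.28, Cd79a at -1.32 and -1.13, Cd22 at -1.70 and -1.39, and Lyn at -1.03 and -0.36. In cells with at least 100 (37 and 7 cells) Ms4a1 was at -3.80 (-4.13 to -3.49) and -2.30 (-2.76 to -1.87), and Cd79a at -3.01 and -2.79. Of the 40 Ms4a1 UMIs in these cells with butyrate, 25 were in 1 cell with 123 Jchain UMIs, and without that cell Ms4a1 was at 94.0 CPM on 15 UMIs, or -3.31 (-4.04 to -2.64). Ms4a1, Cd79a, Cd22 and Lyn thus lay lower in the class of at least 100 Jchain UMIs than in that of 10 to 99. Whether they fall with Jchain inside a class was not tested. Blnk was at 0.08 and 0.05 in the middle class and at -0.34 (-0.56 to -0.12) and -0.54 (-1.11 to -0.01) in the highest.

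In these cells with at least 100 Jchain UMIs, 8 of 9 members were lower past the fold in both libraries, where 22% and 29.4% of genes were. Cd22 had 7 UMIs in 37 cells without butyrate, or 6.93 CPM (2.79 to 14.3), and 0 UMIs in 7 cells with butyrate, a count that allows up to 14.9 CPM and leaves it past the fold at that limit. Lyn had 18 UMIs, or 17.8 CPM (10.6 to 28.2), without butyrate and 3 UMIs with it, at a log2 ratio of -3.04 (-3.98 to -1.94). The kinases Syk and Btk lay less far down, Syk at 51.5 and 64.8 CPM and Btk at 22.8 and 39.8 CPM. Blnk had 162 and 25 UMIs, or 160 CPM (137 to 187) and 124 CPM (80.6 to 184), and with immunoglobulin, ribosomal and mitochondrial genes out of the totals its ratio to resting B cells was 0.07 and 0.00. Of the 25 Blnk UMIs with butyrate, 48.0% were in 1 cell. Without that cell Blnk was at 82.3 CPM on 13 UMIs, or -1.08 (-1.86 to -0.37), which is past the fold. Without butyrate, and without the cell with most Blnk UMIs, it was at -0.45 (-0.68 to -0.23).

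**Figure D3:**
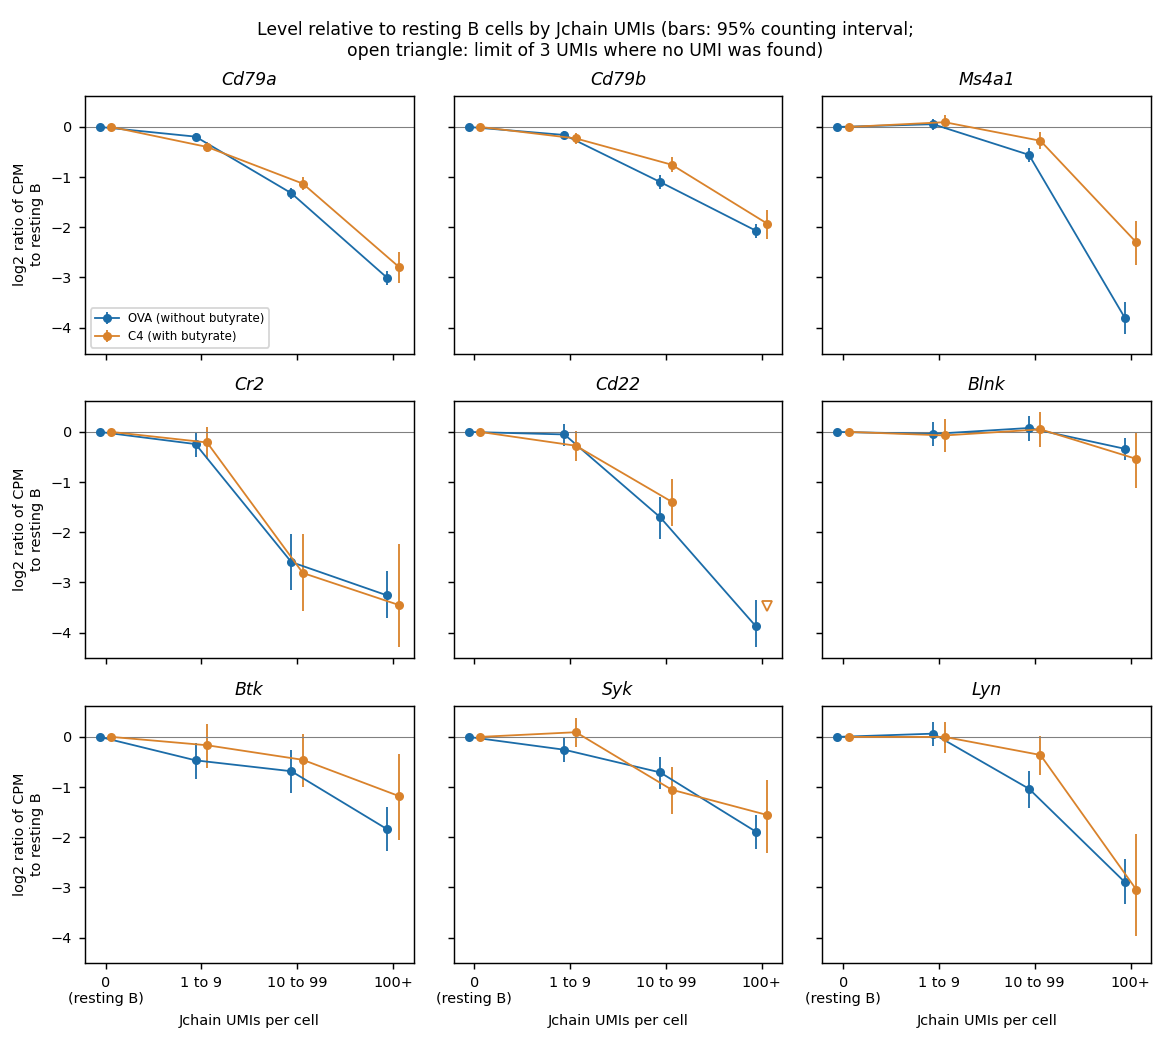
Log2 ratio of CPM to resting B cells for each of the 9 genes, by Jchain UMIs per cell, without (OVA) and with (C4) butyrate; points are sums over the cells of 1 library, bars are 95% counting intervals and the open triangle is the limit set by 3 UMIs where no UMI was found. Ms4a1, Cd79a, Cd22, Lyn and Cr2 drop by more than 2 on this scale in the class of 100 and more, while Blnk stays between -0.54 and 0.08. Of the Blnk UMIs with butyrate in that class, 48.0% are in 1 cell.

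Single Jchain+ cells showed how mixed the class was. A split made after the data were seen took cells with a UMI of Sdc1 (CD138) or Tnfrsf17 (BCMA), both surface proteins of plasma cells. These were 37 of 60 Jchain+ cells without and 10 of 20 with butyrate. Ms4a1 had a UMI in 22 of the 37 cells, with a median of 1 and at most 8 UMIs, and in 8 of the 10 cells, with a median of 5.5 and at most 70 UMIs. In the Jchain+ cells without either marker its medians were 14 UMIs in 23 cells and 18.5 UMIs in 10 cells. Blnk had a UMI in 35 of the 37 and 7 of the 10 cells with a marker, with medians of 4 and 2 UMIs, and medians of 4 and 3.5 UMIs in the cells without. These groups differ in depth with butyrate, at medians of 31839 UMIs per cell with a marker and 14550.5 without. Scaled to CPM, Blnk with butyrate was at 111 (79.0 to 150) with a marker and 286 (211 to 378) without, and these intervals do not meet. Without butyrate it was at 164 CPM (139 to 191) with a marker and 211 CPM (175 to 252) without. Lyn was detected in 11 of 37 and 6 of 10 cells with a marker, and in 20 of 23 and 10 of 10 without.

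**Figure D4:**
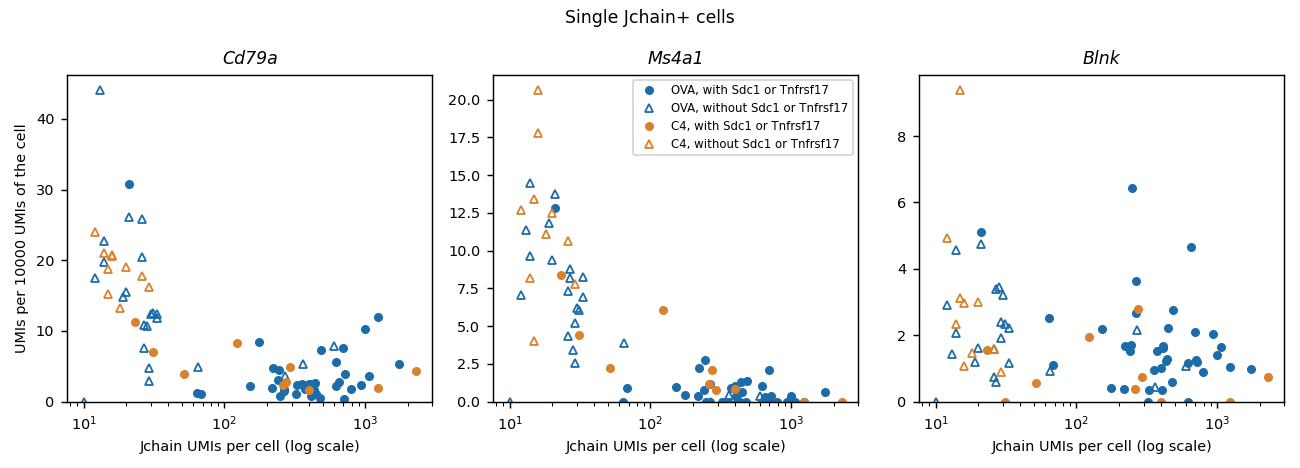
UMIs of Cd79a, Ms4a1 and Blnk per 10000 UMIs of a cell against its Jchain UMIs (log axis), each point 1 Jchain+ cell; filled circles have a UMI of Sdc1 or Tnfrsf17 and open triangles do not, without (OVA, 60 cells) and with (C4, 20 cells) butyrate. Ms4a1 and Cd79a lie lower in cells with more Jchain, and Blnk is spread over the whole range of Jchain.

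Between the libraries, 6 of the 8 members with at least 50 UMIs in Jchain+ cells were higher with butyrate and 0 were lower, where 16.7% of 3716 genes were higher and 6.65% lower. The ratios were 1.09 (0.88 to 1.30) for Ms4a1, 1.01 (0.54 to 1.47) for Lyn, 0.86 (0.30 to 1.41) for Cd22, 0.63 (0.47 to 0.79) for Cd79b, 0.58 (0.43 to 0.73) for Cd79a and 0.57 (0.01 to 1.10) for Btk. Syk at 0.07 and Blnk at -0.11 did not pass, and Cr2 had too few UMIs. With butyrate 1 cell held 83781 of the 533501 UMIs of the class. That cell held 21.9% of the Ms4a1, 31.25% of the Cd22, 17.7% of the Cd79a and 18.75% of the Btk UMIs. The median was 0.61, and that of all genes 0.16. Under the totals without immunoglobulin, ribosomal and mitochondrial genes, 4 of 8 were higher, where 12.7% of genes were.

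The make-up of the class differed between the libraries. Cells with at least 100 Jchain UMIs were 37 of 60 without and 7 of 20 with butyrate, and in those cells alone the median ratio was 0.22 over the 5 members with enough UMIs. In cells with 10 to 99 Jchain UMIs, Ms4a1 was at 658 CPM without and 841 CPM with butyrate. In the same order Cd79a was at 1188 and 1340 CPM, Cd22 at 66.5 and 96.2, Lyn at 91.0 and 150, and Btk at 63.0 and 72.1. Syk at 130 and 96.2 CPM and Blnk at 217 and 192 CPM went the other way. In cells with Sdc1 or Tnfrsf17 the median was 0.69, with 3 of 5 members higher and 1 lower, where 35.3% of genes were higher, 11.3% were lower and the median of all genes was 0.30. In cells without either marker it was 0.67, with 5 of 7 members higher, where 13.3% of genes were and the median of all genes was 0.01. The medians of these subsets and of the whole class cover different sets of members. Whether the make-up of the class bears on the ratios was not tested. Within cells with Sdc1 or Tnfrsf17, Ms4a1 was at 67.8 CPM without and 376 CPM with butyrate, a ratio of 2.31 (1.92 to 2.70). In the same cells 70 of its 136 UMIs with butyrate were in 1 cell with 83781 UMIs and 23 Jchain UMIs. That cell also held 94 of their 221 Cd79a UMIs. Within cells without either marker Ms4a1 was at 0.74 (0.48 to 0.998), Cd79a at 0.57, Cd79b at 0.67 and Lyn at 1.18. Blnk was at -0.53 (-1.01 to -0.06) in the cells with a marker and at 0.42 (-0.07 to 0.89) in those without.

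Genes of the pathway list were also lower in Jchain+ cells. Without butyrate 19 of 26 partners and 10 of 12 inhibitors with enough UMIs were lower than in resting B cells past the fold. Of all genes 11.7% were. With butyrate 9 of 26 and 6 of 12 were lower past it, where 9.68% of all genes were. Bank1, an adaptor of the receptor, was at -3.63 without and -3.15 with butyrate, Cd72, an inhibitory receptor, at -3.45 and -2.89, and Cd38 at -3.25 and -2.83. Cd81, a tetraspanin of the B cell surface, was at 0.62 and 0.70 and Plcg2 at -0.36 and -0.68, neither past the fold.

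Outside the B lineage, Lyn and Syk were at their highest CPM in monocytes or macrophages, though some intervals of neighbouring classes overlap. Some other members were found in a few cells of the small dendritic classes. Lyn was at 276 CPM (219 to 344) without and 355 CPM (280 to 443) with butyrate in 28 and 18 monocytes or macrophages, above resting B cells in both libraries. Syk was at 180 CPM (134 to 235) and 109 CPM (69.9 to 162) in the same cells, and at 162 and 62.0 CPM in 10 and 16 dendritic cells. Both kinases also serve the Fc receptors and integrins of myeloid cells. In NK cells Syk was at 85.8 CPM (8 UMIs) and 49.6 CPM (11 UMIs). Btk was at 93.2 CPM (61.4 to 136) and 31.8 CPM (12.8 to 65.6) in monocytes or macrophages. In the plasmacytoid dendritic cells it was at 120 CPM (24.8 to 352) on 3 UMIs and at 52.4 CPM (1.33 to 292) on 1 UMI. Blnk was at 201 CPM (65.2 to 468) and 157 CPM (32.4 to 460) in the plasmacytoid dendritic cells, on 5 UMIs in 3 cells and 3 UMIs in 2 cells. Cd79b was at 88.5 CPM (45.7 to 155) in the 10 dendritic cells without butyrate, on 12 UMIs in 3 of them, and at 19.1 CPM on 4 UMIs with butyrate. In the order of the Syk levels without butyrate, from resting B cells through monocytes or macrophages, dendritic, plasmacytoid dendritic and cycling B cells, the intervals of neighbours overlap, while those of resting B cells (211 to 225 CPM) and cycling B cells (115 to 182 CPM) do not meet. For Blnk the intervals of cycling B and resting B cells overlapped in both libraries.

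In T cells the 9 genes were found at 0.322% to 1.89% of their level in resting B cells, which is the background against which low levels have to be read. Thinned to 2000 UMIs, 88.9% of Cd3e+ cells without and 89.9% with butyrate showed none of the 9 genes. Cd79a was at 15.6 CPM (14.1 to 17.2) and 14.5 CPM (13.03 to 15.99) in Cd3e+ cells, or 0.523% and 0.491% of its level in resting B cells, and Ms4a1 was at 0.459% and 0.322%. A Cd79a UMI was found in 9.41% and 10.3% of Cd3e+ cells, at medians of 5816 and 6828 UMIs per cell. The 15.6 and 14.5 CPM of Cd79a in T cells lie far under the 362 and 418 CPM in cells with at least 100 Jchain UMIs. Cd22 at 6.93 CPM (2.79 to 14.3) in those cells without butyrate cannot be told apart at this depth from its 4.50 CPM in T cells.

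Cd79b differed between the kinds of T cell. It was at 1.28% (1.18 to 1.39) and 1.29% (1.19 to 1.39) of its resting B level in Cd3e+ cells, above Cd79a in both libraries, while Cd22, Syk and Lyn were at 1.13% to 1.89% of theirs. In CD8+ T cells it was at 27.6 CPM (24.8 to 30.5) and 28.5 CPM (25.8 to 31.3), and in CD4+ T cells at 15.6 CPM (12.6 to 19.2) and 17.2 CPM (14 to 21.02), so that the intervals of the 2 kinds of T cell do not meet in either library. Cd79a was alike in both kinds, at 14.4 and 14.7 CPM in CD8+ and 14.6 and 14.6 CPM in CD4+ T cells. The CD8+ T cells thus held 366 and 430 Cd79b UMIs beside 192 and 222 Cd79a UMIs, whereas in resting B cells Cd79b had fewer UMIs than Cd79a (32489 and 36174 beside 54965 and 56987). The UMIs were spread over 309 of 1841 and 354 of 1811 CD8+ T cells, with at most 5 in 1 cell. After thinning, 5.06% (4.10 to 6.16) and 5.64% (4.62 to 6.80) of CD8+ T cells and 2.74% (1.80 to 3.98) and 4.07% (2.83 to 5.64) of CD4+ T cells had a Cd79b UMI, so with butyrate these intervals meet. Gamma-delta T cells had Cd79b at 31.1 CPM (17.8 to 50.5) on 16 UMIs without butyrate. With butyrate they had it at 56.9 CPM (36.1 to 85.3) on 23 UMIs, above the interval of CD8+ T cells.

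Lyn in CD4+ T cells differed between the libraries, at 5.90 CPM (4.09 to 8.25) without and 0.880 CPM (0.286 to 2.05) with butyrate, on 34 and 5 UMIs. Of the 34 UMIs 14 were in 1 cell and 22 in the top 5 cells. Without the top cell Lyn was at 1.78% (1.09 to 2.75) of its resting B level in place of 3.00%. In CD8+ T cells Lyn was at 1.58 CPM without and 1.32 CPM with butyrate. In all Cd3e+ cells it was at 2.61 and 2.45 CPM, where 1 cell held 14 of 65 and 21 of 64 UMIs. Cd22 in Cd3e+ cells was at 4.50 CPM (3.71 to 5.42) and 3.14 CPM (2.49 to 3.89), in either library a larger part of its B cell level than Cd79a.

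**Figure D5:**
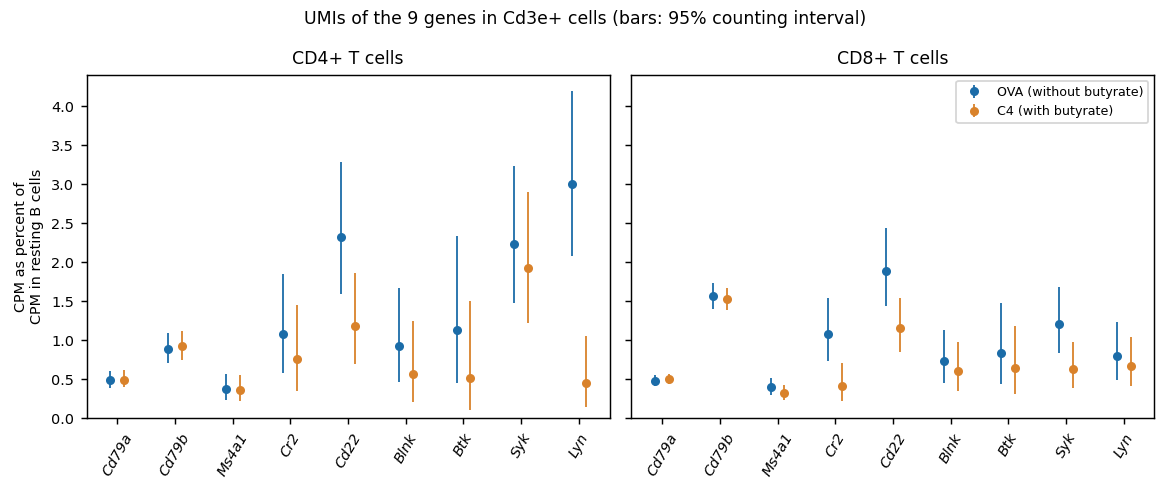
CPM of the 9 genes in CD4+ and CD8+ T cells as percent of the CPM in resting B cells of the same library, without (OVA) and with (C4) butyrate; bars are 95% counting intervals. Most values lie near or under 1%, Cd79b is higher in CD8+ than in CD4+ T cells in both libraries, and Lyn in CD4+ T cells without butyrate stands at 3.00%.

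Across the 10 classes of both libraries, 20 points in all that share depth and library, the members fell into kinds by their log2 CPM. The surface proteins and signal subunits went closely together, with Pearson's r of 0.98 between Cd79a and Ms4a1 and 0.97 between Cr2 and Cd22. Lyn went least with them, at 0.43 with Cd22 and 0.46 with Ms4a1, and its nearest members were Btk at 0.81 and Syk at 0.74. Among 3640 genes the ones most like each member were Pax5 for Cd79a and Cd22 (0.98 each), Tnfrsf13c for Ms4a1 (0.997) and Cd79b (0.94), Gm31243 for Cr2 (0.996), Fcrla for Blnk (0.96), Lmo2 for Btk (0.92), Irf5 for Syk (0.91) and Aldh2 for Lyn (0.95). Pax5 and Tnfrsf13c are among the 8 genes that set the B cell gate. Gm31243 (chr3:135904344-136167184, + strand) is annotated as antisense and overlaps Bank1 on the other strand.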

How the data were processed

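Single-cell RNA was measured in 2 libraries, 1 per condition. The authors ran Cell Ranger 6.0.1 against mm10, per the labels and the submitters' processing notes, and deposited raw UMI counts, not normalized. Whether reads were counted by strand is not given in the sources used here, and Lyn, Cd22, Ms4a1 and Btk overlap genes on the other strand. Of 31053 gene identifiers, 30934 matched GENCODE M21.

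Everything else was computed from those counts. Filters on mitochondrial UMIs (at most 10%) and on genes per cell (at least 200) took out 186 cells without and 327 with butyrate. Scrublet as run by scanpy 1.11.5 then ranked the rest, and the top 0.8% for every 1000 cells were taken out as doublets (721 and 592). A Jchain+ cell had no Cd3e UMI. T cells passing the B cell gate (115 and 120) were left out. For each class and library, UMIs were summed and scaled to CPM. A ratio was computed only where a gene had 50 UMIs or more over both sums. Intervals at 95% are exact: Poisson for sums, binomial (Clopper-Pearson) for shares and for the split of a gene's UMIs. A count of 0 allows up to 3 counts. Thinning to 2000 UMIs left out 101 and 58 cells. The genes named as most alike have the highest Pearson's r over the classes, among genes with at least 500 UMIs in all and 100 CPM in some class. Simulated counts with known folds were used to check the ratios. The scripts ran under Python 3.11.15 with scipy 1.17.1, numpy 2.4.6 and pandas 2.3.3.

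The members and lists were chosen with earlier results of these data known. The 17 alternatives include other gates, filters, scalings, doublet handling and pseudocounts. The splits by Sdc1 or Tnfrsf17 and the values without the top CD4+ T cell or top Jchain+ cell were added after the data were seen. The values of 1 gene of the pathway list are not reported here.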

Additional observations from a re-analysis of the deposited data

How the results depend on the processing

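No paired analysis was possible because each group has 1 library. In resting B cells, 0 of 9 members passed the fold between the libraries under all 12 alternatives run for that count. Few of all genes passed there either, from 0.249% with B cell clusters to 2.10% at a log2 ratio of 0.25. Of 1188 alternative values for 96 results, 963 stayed within the set limits, 225 moved and 0 were classed as reversed. That does not mean that every call held. As given below, members gained and lost calls under some alternatives, and the cycling B median between the libraries changed sign after thinning. Among the counts and medians of the members, those that moved concern cycling B, Jchain+ and Cd3e+ cells, and the cause was not tested.

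Between the libraries, 1 of 9 cycling B members passed the fold as reported. It was 0 of 9 with a B cell gate of at least 2 (14.6% of genes) or at least 4 of 8 genes (15.9%). With UMIs of either Mki67 or Top2a (5.35%) and with no doublet removal (11.7%) it was also 0 of 9. It was 0 of 3 with at least 200 UMIs over both sums (6.43%). With B cell clusters in place of the gate it was 4 of 6 (29.1%), and at a log2 ratio of 0.25 it was 5 of 9 (46.3%). The median ratio of 0.21 became 0.53 over 6 members with clusters and -0.41 over 3 with each cell thinned to 2000 UMIs. In the comparisons with resting B cells all 9 members had enough UMIs. For cycling over resting B cells without butyrate, 1 member passed as reported. With clusters (11.0% of genes), with either cycling gene (1.88%) and with no doublet removal (6.11%) 0 passed. After thinning 2 passed (28.1%), and the median of -0.42 became -0.18 with either cycling gene. With butyrate, 0 passed as reported. With clusters (15.2% of genes), with a gate of 2 (9.70%) and with no doublet removal (7.54%) 1 passed. It was also 1 with a pseudocount of 1 CPM (28.8%) and with scaling without immunoglobulin, ribosomal and mitochondrial genes (15.8%). After thinning 3 passed (48.8%).

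For Jchain+ over resting B cells the medians were -1.78 without and -1.09 with butyrate. They became -1.04 and -0.56 with at least 1 Jchain UMI, -2.89 and -2.30 with at least 100, -1.64 and -0.67 for the mean over cells of each cell's own CPM, -2.89 and -1.82 in cells with Sdc1 or Tnfrsf17, and -1.05 and -0.52 in cells without them. Without butyrate the median was -2.03 after thinning, -1.56 with no doublet removal and -1.59 under the scaling above. The members past the fold were 8 and 5 as reported (18.1% and 15.1% of genes in either direction). They were 5 and 3 with at least 1 Jchain UMI (8.53% and 5.84%). In cells without Sdc1 and Tnfrsf17 they were 5 and 2 (16.8% and 20.4%). With butyrate they were 8 with at least 100 Jchain UMIs (33.9%) and 3 for the mean over cells (16.4%). Between the libraries, the 6 of 8 members past the fold in Jchain+ cells (23.4% of genes in either direction) became 2 of 9 with at least 1 Jchain UMI (14.2%), 1 of 5 with at least 100 (29.2%), 3 of 4 with at least 200 UMIs over both sums (21.6%), 3 of 3 after thinning (39.5%) and 3 of 8 with no doublet removal (17.8%). The median of 0.61 became 0.22 over 5 members with at least 100.

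The median level of the members in Cd3e+ cells, 0.923% without and 0.707% with butyrate of that in resting B cells, became 3.08% and 3.34% when all cells with a Cd3e UMI were kept, including the T cells that passed the B cell gate. The Jchain+ (60 and 20 cells), cycling B (32 and 15 cells), dendritic, NK and monocyte or macrophage classes rest on few cells.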
